A study of Mus musculus with 12 samples.

Results

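The circadian clock genes described here are 10 mouse genes chosen by symbol: Per1, Per2, Per3, Cry1, Ciart, Nr1d1, Nr1d2, Dbp, Tef and Arntl, which is also named Bmal1. They are 10 of the 18221 genes listed in the spleen tables, and all 10 were among the 12671 genes tested. The level of a gene is the sum of its transcripts in RPKM, which is its reads per kilobase of transcript scaled to the size of the library. Sequencing measured the spleens of 12 male ICR mice killed at 8 weeks of age, 3 mice in each of 4 groups. ICR is an outbred strain. Con-sa mice received saline. B-sa mice received 1 injection of busulfan, an alkylating anticancer drug, at 40 mg/kg and then saline. B+Con-FMT mice received the same busulfan and then gut microbiota by mouth, daily for 2 weeks, from water-dosed donors. B+A10-FMT mice received busulfan and microbiota from donors dosed with alginate oligosaccharide (AOS). Each inoculum was pooled over donors, so the 3 recipients of a group shared 1 source of microbiota. The mice were kept under a light and dark cycle, and the hour at which each mouse was killed is not given in the sources used here.

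The mammalian clock is a transcription loop that runs in nearly every cell. The activators ARNTL and CLOCK bind E-box sequences and switch on the period (Per), cryptochrome (Cry), Nr1d and PAR bZIP (Dbp, Tef, Hlf) genes, and PER and CRY proteins then shut the activators down. NR1D1 and NR1D2, also called REV-ERB alpha and beta, repress Arntl, so that in most tissues Dbp, Nr1d1 and Per transcripts peak at another time of day than Arntl, and Dbp is among the transcripts with the widest daily swing. In the spleen the clock is known to run in macrophages and lymphocytes.

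The elements through which this loop acts could be read from the promoter windows of RefSeq (build GRCm38.p6, from 250 bases before to 50 bases after a start site). Windows were found for 9 of the 10 genes, 12 windows in all. The letters searched on both strands were CACGTG for the E-box, TTANGTAA for the D-box bound by DBP and TEF, and TAGGTCA for the half-site bound by the ROR and REV-ERB receptors. These letters occurred in 7.15%, 2.32% and 2.61% of 32851 windows, respectively, and no window of the 10 genes held more than 1 of the 3 motifs. The E-box occurred in windows of Per1, Cry1, Ciart and Tef, the D-box in that of Per3, and the half-site in a window of Arntl. The windows of Dbp, Nr1d1 and Nr1d2 held none of the 3 motifs, and Per2 had no window. The stretches around these matches are shown because these motifs are the known links between the genes of the loop. Capitals mark every match, the strand is that of the gene, and the position of the first capital counts from the start site.
Per1, E-box at -166, chr11:69098758-69098813, plus strand: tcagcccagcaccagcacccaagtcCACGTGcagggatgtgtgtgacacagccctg
Cry1, E-box at -60, chr10:85185084-85185139, minus strand: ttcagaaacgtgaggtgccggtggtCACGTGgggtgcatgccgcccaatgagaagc
Ciart, E-boxes at -58 and -44, chr3:95882256-95882311, minus strand: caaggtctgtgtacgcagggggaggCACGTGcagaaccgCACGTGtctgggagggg
Tef, first start site, E-box at -127, chr15:81802521-81802576, plus strand: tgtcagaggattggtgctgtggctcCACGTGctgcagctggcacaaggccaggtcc
Tef, second start site, E-box at -138, chr15:81811251-81811306, plus strand: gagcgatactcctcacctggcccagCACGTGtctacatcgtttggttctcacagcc
Per3, D-box at -205, chr4:151044838-151044895, minus strand: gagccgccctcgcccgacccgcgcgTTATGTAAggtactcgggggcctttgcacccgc
Per3, D-box at -158, chr4:151044791-151044848, minus strand: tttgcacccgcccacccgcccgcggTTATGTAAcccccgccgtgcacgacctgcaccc
Arntl, half-site at 31, chr7:113207529-113207558, plus strand: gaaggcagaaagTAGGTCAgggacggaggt
Ciart had 1 more E-box, at -116. A match is a string of letters and not a measured binding site.

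The differences of the clock genes between the 4 groups were small, as were those of most genes. Over the 6 comparisons between groups, all 60 estimated differences were smaller than 1.3-fold on the log2(RPKM + 1) scale, 58 of the 60 95% confidence intervals lay within 1.5-fold, and all lay within 2-fold. Of the tests of all genes, 94.5% had an estimate under 1.3-fold, 90.9% an interval within 1.5-fold and 97.3% an interval within 2-fold. With 0.1 added in place of 1, which compresses low genes less, 59 estimates were under 1.3-fold, 46 intervals lay within 1.5-fold and all 60 within 2-fold. In the test of any difference among the 4 groups (limma F test, Benjamini-Hochberg adjusted over all genes tested), 0 of the 10 genes passed an adjusted p of 0.05, against 17.1% of all genes tested. The lowest adjusted p-values were 0.0871 for Tef and 0.0956 for Arntl, and 3 genes, Tef, Arntl and Nr1d1, had an unadjusted p under 0.05, against 37.6% of all genes. In the pairwise comparisons, 1 of 60 tests passed, that of Tef in B-sa against Con-sa, where 6.71% of the tests of all genes passed over the same 6 comparisons. Groups are compared here with the spread between mice of a group, estimated over all 12 mice. The comparisons share groups and are not independent of each other.

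**Figure D1:**
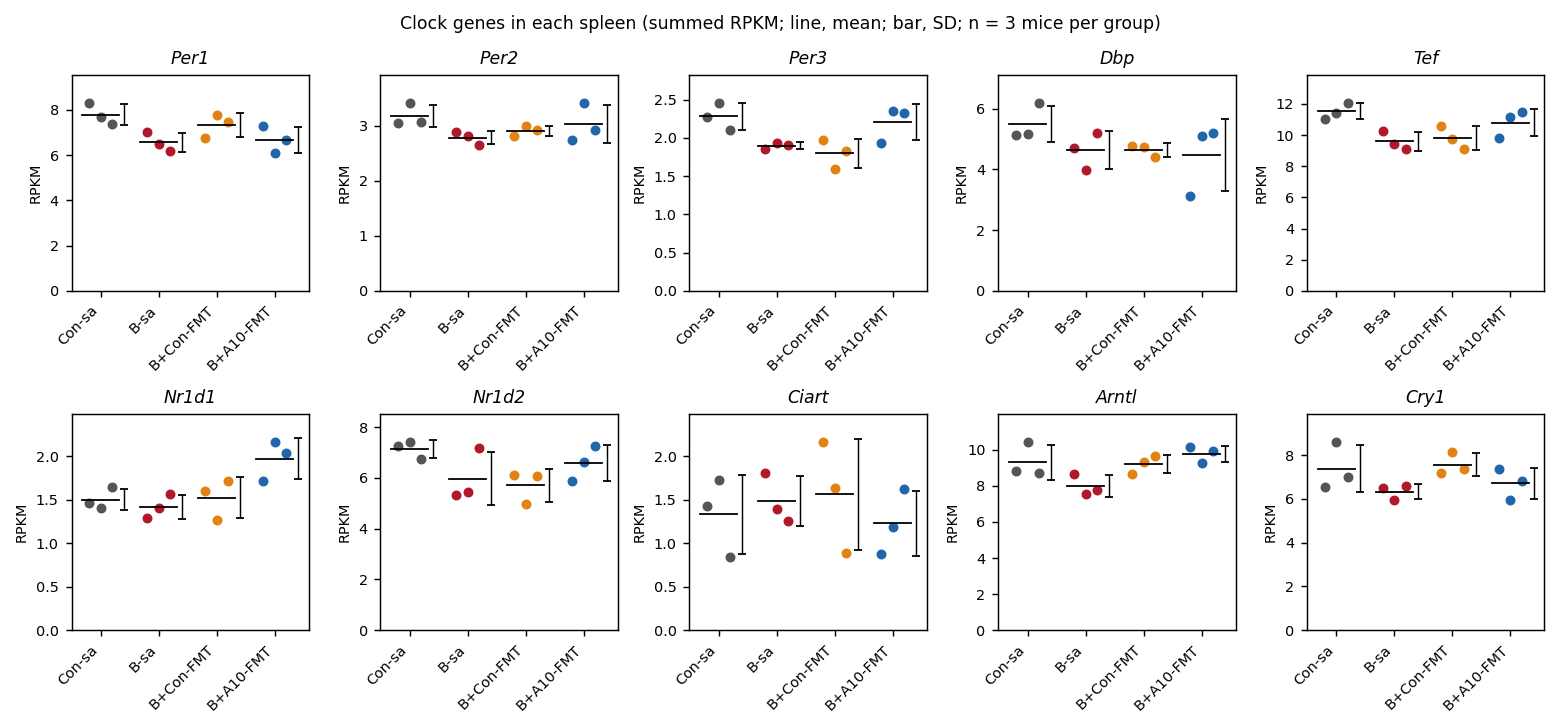
Summed RPKM of each clock gene (vertical axes from 0, a scale per gene) in each spleen (points) of the 4 groups. Horizontal lines are group means and bars are SD (n = 3 mice). For every gene at least 2 groups overlapped, and the group means of a gene lay within 1.39-fold of each other.

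The spleen libraries were of similar size. The steps between low RPKM values of genes with 1 listed transcript give an estimated 14700000 to 15300000 reads per mouse. The same estimate puts the clock genes at medians between 27 reads for Ciart and 622 reads for Tef, for which counting alone gives a coefficient of variation of 19% and 4%. Nr1d1 stood at 62 reads (13%) and Dbp at 126 reads (8.9%). The 6 B cell, 6 T cell and 6 erythroid markers were each at 1 RPKM or more in every spleen. The 19 pancreatic acinar markers, digestive enzymes of the organ beside the spleen, summed to 10900 to 17600 RPKM in B+Con-FMT and ranged from 604 to 12900 RPKM in the other 9 spleens. The 10 kidney markers summed to 77.9 to 120 RPKM in Con-sa, 8.51 to 16.0 RPKM in B-sa, 19.0 to 64.1 RPKM after B+Con-FMT and 1.10 to 3.99 RPKM after B+A10-FMT, and the 10 globin genes to 174000 to 181000 RPKM, 206000 to 250000 RPKM, 182000 to 222000 RPKM and 158000 to 193000 RPKM in the same order.

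The period genes encode the repressors that close the loop with the cryptochromes. Per1 (Entrez 18626, chr11:69095108-69109965, plus strand, coordinates of RefSeq on GRCm38.p6 here and below) measured 8.32, 7.68 and 7.39 RPKM in Con-sa spleens, 7.01, 6.51 and 6.20 RPKM in those of B-sa, 6.76, 7.79 and 7.46 RPKM after B+Con-FMT, and 7.28, 6.10 and 6.66 RPKM after B+A10-FMT. All Con-sa spleens were above all B-sa and all B+A10-FMT spleens, while B+Con-FMT overlapped every other group. The log2 fold change was -0.22 ± 0.08 (SE) in B-sa against Con-sa (limma adjusted p = 0.0817) and -0.20 ± 0.08 in B+A10-FMT against Con-sa (adjusted p = 0.307), neither of which passed. With the transcript of the highest mean in place of the sum they were 0.04 and -0.06.

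Per2 (Entrez 18627, chr1:91415977-91459351, minus strand), the period gene whose loss most disturbs the rhythm of mice, measured 3.05, 3.42 and 3.07 RPKM in Con-sa spleens, 2.88, 2.81 and 2.65 RPKM in those of B-sa, 2.81, 2.99 and 2.93 RPKM after B+Con-FMT, and 2.75, 3.41 and 2.93 RPKM after B+A10-FMT. Its range over the 12 spleens, 1.29-fold, was the smallest of the 10 genes. The Con-sa values lay above those of B-sa and B+Con-FMT and within reach of B+A10-FMT. The difference of B-sa from Con-sa was -0.14 ± 0.08 (log2, adjusted p = 0.241), and -0.28 with the transcript of the highest mean in place of the sum.

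Per3 (Entrez 18628, chr4:150997018-151044707, minus strand), a period gene that mice can lose with little effect on the rhythm, measured 2.28, 2.46 and 2.11 RPKM in Con-sa spleens, 1.85, 1.94 and 1.91 RPKM in those of B-sa, 1.97, 1.60 and 1.83 RPKM after B+Con-FMT, and 1.94, 2.35 and 2.33 RPKM after B+A10-FMT. Con-sa was above both B-sa and B+Con-FMT in every spleen, and B+A10-FMT spanned the gap, with 2 spleens at the Con-sa level and 1 at the B-sa level. The log2 differences were -0.18 ± 0.09 for B-sa against Con-sa (adjusted p = 0.185), -0.23 ± 0.09 for B+Con-FMT against Con-sa (0.112) and 0.20 ± 0.09 for B+A10-FMT against B+Con-FMT (0.162). Groups took up 67% of the sum of squares of Per3 on the log2 scale, the highest of the 10 genes, against a median of 49.6% over all genes tested.

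Cry1 (Entrez 12952, chr10:85131700-85185054, minus strand), the cryptochrome that represses ARNTL and CLOCK, measured 6.56, 8.60 and 7.01 RPKM in Con-sa spleens, 6.49, 5.93 and 6.57 RPKM in those of B-sa, 7.20, 8.16 and 7.36 RPKM after B+Con-FMT, and 7.35, 5.97 and 6.81 RPKM after B+A10-FMT. The B-sa spleens lay below all B+Con-FMT spleens and overlapped the other groups, and Con-sa replicate 2 was the highest of all. The difference of B+Con-FMT from B-sa was 0.23 ± 0.10 (log2, adjusted p = 0.238), and that of B-sa from Con-sa was -0.19 ± 0.10 (adjusted p = 0.199), which became -0.09 without Con-sa replicate 2. With the transcript of the highest mean in place of the sum, the former was 0.15.

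Ciart (Entrez 229599, chr3:95878500-95882257, minus strand), also called CHRONO, is a further repressor of the ARNTL and CLOCK pair. It measured 1.43, 1.73 and 0.84 RPKM in Con-sa spleens, 1.81, 1.39 and 1.25 RPKM in those of B-sa, 2.16, 1.63 and 0.89 RPKM after B+Con-FMT, and 0.87, 1.19 and 1.62 RPKM after B+A10-FMT. Every group held both high and low spleens, all groups overlapped, and the highest spleen was 2.57-fold above the lowest, the widest range of the 10 genes. Its largest difference with summed transcripts was -0.18 ± 0.20 (log2, B+A10-FMT against B+Con-FMT, adjusted p = 0.566). The within-group SD of 0.28 on the log2 scale was also the largest of the 10 and compares with a median of 0.0991 over all genes tested. The 95% interval of that difference ran from -0.61 to 0.24, the widest span of the 10 genes.

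Nr1d1 (Entrez 217166, chr11:98767932-98775377, minus strand) encodes REV-ERB alpha, a heme-binding repressor of Arntl. It measured 1.46, 1.40 and 1.64 RPKM in Con-sa spleens, 1.29, 1.40 and 1.56 RPKM in those of B-sa, 1.60, 1.26 and 1.71 RPKM after B+Con-FMT, and 1.71, 2.16 and 2.04 RPKM after B+A10-FMT. The B+A10-FMT spleens were all above Con-sa and B-sa, and the lowest of them equalled the highest B+Con-FMT spleen. The log2 fold changes of B+A10-FMT were 0.30 ± 0.10 against B-sa (adjusted p = 0.0957), 0.24 ± 0.10 against B+Con-FMT (0.138) and 0.25 ± 0.10 against Con-sa (0.312), and none passed. With 0.1 added in place of 1 the first of these was 0.45, the second 0.35 and the third 0.37. Exons of Nr1d1 overlap those of Thra, a thyroid hormone receptor on the opposite strand, and the use of strand in counting is not given, so reads of the pair cannot be told apart there. Thra lay between 8.53 and 11.19 RPKM in the 12 spleens, at 9.01 to 9.73 RPKM in B-sa and 9.88 to 10.06 RPKM in B+A10-FMT.

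Nr1d2 (Entrez 353187, chr14:18204056-18239106, minus strand) encodes REV-ERB beta, which backs up REV-ERB alpha. It measured 7.25, 7.41 and 6.76 RPKM in Con-sa spleens, 5.31, 5.45 and 7.16 RPKM in those of B-sa, 6.12, 4.97 and 6.06 RPKM after B+Con-FMT, and 5.87, 6.63 and 7.26 RPKM after B+A10-FMT. Con-sa was above B+Con-FMT in every spleen, and B-sa fell into 2 low spleens and 1 at the Con-sa level. The log2 differences from Con-sa were -0.23 ± 0.11 in B-sa (adjusted p = 0.161) and -0.28 ± 0.11 in B+Con-FMT (adjusted p = 0.114). Without B-sa replicate 3 the first became -0.35 with an adjusted p of 0.0438.

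Dbp (Entrez 13170, chr7:45705100-45710203, plus strand), the PAR bZIP factor that carries E-box rhythm to D-box genes, measured 5.13, 5.16 and 6.19 RPKM in Con-sa spleens, 4.70, 3.97 and 5.21 RPKM in those of B-sa, 4.78, 4.74 and 4.39 RPKM after B+Con-FMT, and 3.11, 5.11 and 5.18 RPKM after B+A10-FMT. The lowest and the highest spleens, B+A10-FMT replicate 1 and Con-sa replicate 3, differed 1.99-fold, and Con-sa was above B+Con-FMT in every spleen. The log2 differences from Con-sa were -0.21 ± 0.14 in B-sa (adjusted p = 0.332), -0.20 ± 0.14 after B+Con-FMT (0.375) and -0.27 ± 0.14 after B+A10-FMT (0.423). The first was -0.58 with the transcript of the highest mean in place of the sum (limma adjusted p = 0.0504), -0.12 without B-sa replicate 2 and -0.13 without Con-sa replicate 3. Without B+A10-FMT replicate 1 the last was -0.08. Dbp shares exon sequence with Sphk2, a sphingosine kinase gene on the opposite strand, at 15.1 to 16.7 RPKM in the group means, and part of the Dbp level could belong to it.

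Tef (Entrez 21685, chr15:81802673-81826863, plus strand), a second PAR bZIP factor, was the most abundant of the 10 genes per length. It measured 11.06, 11.42 and 12.07 RPKM in Con-sa spleens, 10.28, 9.43 and 9.11 RPKM in those of B-sa, 10.60, 9.74 and 9.10 RPKM after B+Con-FMT, and 9.80, 11.13 and 11.46 RPKM after B+A10-FMT. Con-sa was above B-sa and B+Con-FMT in every spleen, and the B+A10-FMT spleens overlapped all groups. Against Con-sa, Tef changed in B-sa by a log2 fold change of -0.24 ± 0.08 (SE; 95% interval -0.40 to -0.08), with a limma adjusted p of 0.0497, just under the threshold. The call was lost under 6 of 8 other ways of processing, with adjusted p-values from 0.0407 to 0.835, and on leaving out any of 8 of the 12 mice: Con-sa replicates 1, 2 and 3, B-sa replicates 2 and 3, B+Con-FMT replicate 2, and B+A10-FMT replicates 2 and 3 (adjusted p 0.0351 to 0.142 over the 12 mice). B+Con-FMT differed from Con-sa by -0.21 ± 0.08 (adjusted p = 0.0919), which passed only with totals made equal outside the globin genes (-0.26, adjusted p = 0.0279) among the settings tried. B+A10-FMT differed from B-sa by 0.15 ± 0.08 (adjusted p = 0.231). An antisense gene, Gm17597, overlaps exons of Tef.

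The files list 6 transcripts of Tef, and 3 carried most of its level. NM_017376.3 averaged 4.59 RPKM for Con-sa, 3.63 for B-sa, 3.90 with B+Con-FMT and 2.74 with B+A10-FMT, and XM_006520744.1 averaged 4.43, 4.13, 4.39 and 5.79 RPKM in the same order. The third, NM_153484.3, averaged 1.87, 1.46, 0.917 and 1.27 RPKM. The single transcripts thus ordered the groups differently from their sum, and how reads shared by transcripts were divided is not given. With the transcript of the highest mean in place of the sum, the difference of B-sa from Con-sa was -0.09, that of B+Con-FMT from Con-sa -0.02 and that of B+A10-FMT from B-sa 0.39.

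Arntl (Entrez 11865, chr7:113178471-113314126, plus strand) encodes BMAL1, the activator without which the loop stops. It measured 8.80, 10.43 and 8.72 RPKM in Con-sa spleens, 8.67, 7.57 and 7.76 RPKM in those of B-sa, 8.67, 9.33 and 9.68 RPKM after B+Con-FMT, and 10.13, 9.29 and 9.96 RPKM after B+A10-FMT. The B-sa spleens were below all Con-sa and all B+A10-FMT spleens, the highest of them equalled the lowest B+Con-FMT spleen, and B+A10-FMT held the highest mean. The log2 differences were -0.19 ± 0.08 for B-sa against Con-sa (adjusted p = 0.11), 0.26 ± 0.08 for B+A10-FMT against B-sa (0.0661) and 0.19 ± 0.08 for B+Con-FMT against B-sa (0.235). Leaving out B-sa replicate 1 moved the second of these to 0.32 with an adjusted p of 0.0446, and with each other mouse left out it did not pass. The first was -0.12 without Con-sa replicate 2, and with the top transcript in place of the sum the first was -0.43 and the third 0.43. An antisense gene, Gm45355, overlaps exons of Arntl.

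The comparison of B-sa with Con-sa sets busulfan-treated mice beside saline-dosed controls. The hour of killing is not given, so treatment and a difference between groups in that hour cannot be told apart. Of the 10 genes, 9 had a negative log2 difference and Ciart a positive one (0.10 ± 0.20, but -0.06 without Con-sa replicate 3 and 0.43 with the top transcript in place of the sum), with a median of -0.19 against -0.04 over all genes tested. Tef was the only gene called, 1 of 10, where 14.5% of all genes were called in either direction, and 3 of 10 had an unadjusted p under 0.05, as had 31.3% of all genes. In 5 of 10 genes (Per1, Per2, Per3, Tef and Arntl) every B-sa spleen was below every Con-sa spleen, as in 22.8% of all genes tested. Under both other scalings of the libraries 9 of 10 differences were again negative, with medians of -0.15 and -0.19. The 10 genes are read from the same spleens, so these counts are not independent of each other. Among the marker lists, the B cell markers summed to 1910 to 2110 RPKM in Con-sa and 1440 to 1750 RPKM in B-sa, with 5 of 6 called lower, and 3 of 3 tested kidney markers were called lower. Of the T cell markers 1 of 6 was called lower. Pancreatic markers had a negative difference in 19 of 19 and adipocyte genes a positive one in 7 of 8 tested. In these last 2 lists 0 were called or had an unadjusted limma p under 0.05. Markers of neutrophils and precursors summed to 2040 to 2120 RPKM in Con-sa and 3630 to 5950 RPKM in B-sa, with 2 of 8 called higher. Erythroid markers were higher in 6 of 6, with 1 called, and the globin sums given above were higher in B-sa without overlap. Their part in the difference was not tested, and in whole spleen fewer cells of a type and less RNA per cell cannot be told apart.

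**Figure D2:**
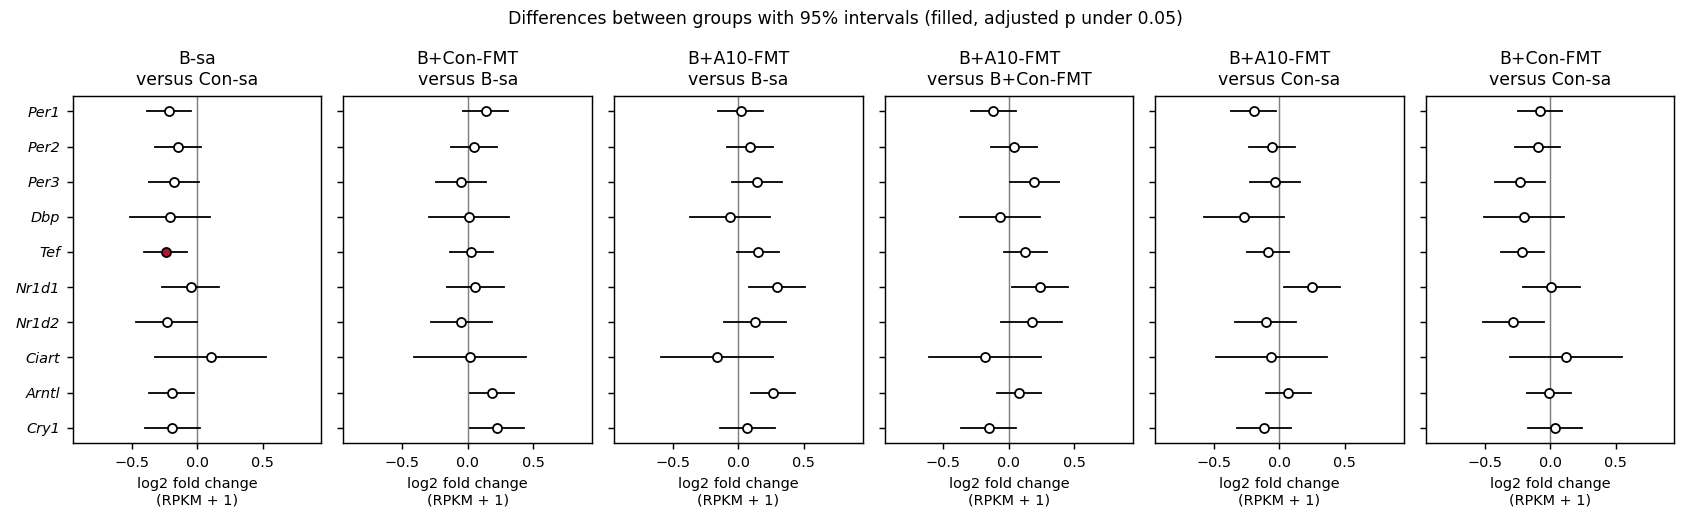
Log2 fold change on the log2(RPKM + 1) scale (horizontal axes, points) with its 95% confidence interval (lines) for each clock gene in the 6 comparisons between groups, 3 mice per group. The only filled point, Tef in B-sa against Con-sa at -0.24, passed an adjusted p of 0.05. No interval reached beyond 2-fold.

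The comparisons of the FMT groups with B-sa set mice given microbiota after busulfan beside mice given saline after it. Here too treatment and hour of killing cannot be told apart. In B+Con-FMT against B-sa, limma called 0 of 10 genes, against 0.844% of all genes (2 at an unadjusted p under 0.05, against 18.4%), and 8 of 10 differences were positive with a median of 0.04, but 5 were positive and 5 negative once totals were made equal outside the globin genes. Cry1 was the 1 gene with every spleen higher, as in 10.4% of all genes. In the same comparison 3 of 9 temperature-responsive genes, mostly heat shock chaperones, and 1 of 6 T cell markers were called higher. The 19 pancreatic markers were higher in 19 of 19 and the adipocyte genes lower in 8 of 8 tested, with 0 called by limma in either list (19 and 6 at an unadjusted p under 0.05, against 18.4% of all genes). Their part in the clock gene differences was not tested. In B+A10-FMT against B-sa, limma called 0 of 10, against 5.27% of all genes (2 unadjusted, against 24.5%), and 8 of 10 differences were positive with a median of 0.11 against 0.05 over all genes (7 and 8 positive under the other scalings, median-of-ratios and equal totals outside the globin genes). Arntl and Nr1d1 were the 2 genes with every spleen higher, as in 19.7% of all genes. Their differences, 0.26 and 0.30, were the largest of the 10 with summed transcripts. Summed markers of red pulp macrophages, the iron-recycling cells of the spleen, were at 481 to 625 RPKM in B-sa and 713 to 836 RPKM after B+A10-FMT, and 6 of 6 had a positive difference, 2 of them called. The 9 adipocyte genes summed to 147 to 337 RPKM in B-sa and 87.5 to 101 RPKM after B+A10-FMT, with 8 of 8 differences negative and 0 called by limma (7 at an unadjusted p under 0.05, against 24.5% of all genes). Of the 9 temperature-responsive genes 8 had a negative difference and 1 a positive one, with 1 called lower. The part of these lists, and of the kidney and globin genes given above, in the clock gene differences was not tested.

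The comparison of the donors, B+A10-FMT against B+Con-FMT, called 0 of 10 clock genes by limma, against 10.4% of all genes (2 at an unadjusted p under 0.05, against 28.9%), with 6 positive and 4 negative differences. None of the 10 had groups without overlap, against 35.0% of all genes tested in either direction. The estimates ran from -0.18 for Ciart to 0.24 for Nr1d1. These groups differed in other lists: the 9 temperature-responsive genes summed to 2530 to 2770 RPKM after B+Con-FMT and 1580 to 1850 RPKM after B+A10-FMT, and against B+Con-FMT 7 of them fell and 1 rose. The red pulp macrophage markers summed to 459 to 555 RPKM after B+Con-FMT against the 713 to 836 RPKM above, with 4 of 6 called higher. Cold- and heat-responsive genes follow body temperature, which has a daily rhythm of its own. The part of these lists, and of the pancreatic markers given above, in the clock gene values was not tested.

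The 2 remaining comparisons set the FMT groups against the saline-dosed controls. In B+A10-FMT against Con-sa, limma called 0 of 10 genes, against 0.41% of all genes (2 at an unadjusted p under 0.05, against 13.5%), and 2 genes had groups without overlap, Nr1d1 (higher) and Per1 (lower), as had 21.6% of all genes. In B+Con-FMT against Con-sa, limma called 0 of 10 (1, Tef, with totals equal outside the globin genes), against 8.87% of all genes (3 unadjusted, against 27.4%), and 5 genes (Per2, Per3, Dbp, Tef and Nr1d2) were lower in every spleen, as in 23.6% of all genes. The median difference was -0.07 in the former and -0.09 in the latter, against 0.00 and -0.04 over all genes. The latter median was -0.04, with 6 genes lower and 4 higher, under median-of-ratios scaling, and -0.13, with 9 lower and 1 higher, with totals made equal outside the globin genes. Among the marker lists, B+Con-FMT against Con-sa had 5 of 9 temperature-responsive genes and 2 of 6 T cell markers called higher, and 2 of 6 B cell markers and 1 of 3 tested kidney markers called lower. In B+A10-FMT against Con-sa 3 of 3 tested kidney markers were called lower and 1 of 6 red pulp macrophage markers higher. Adipocyte genes were lower in 8 of 8 tested in both, with 0 called by limma (6 and 5 at an unadjusted p under 0.05, against 27.4% and 13.5% of all genes). Their part in the clock gene differences was not tested.

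**Figure D3:**
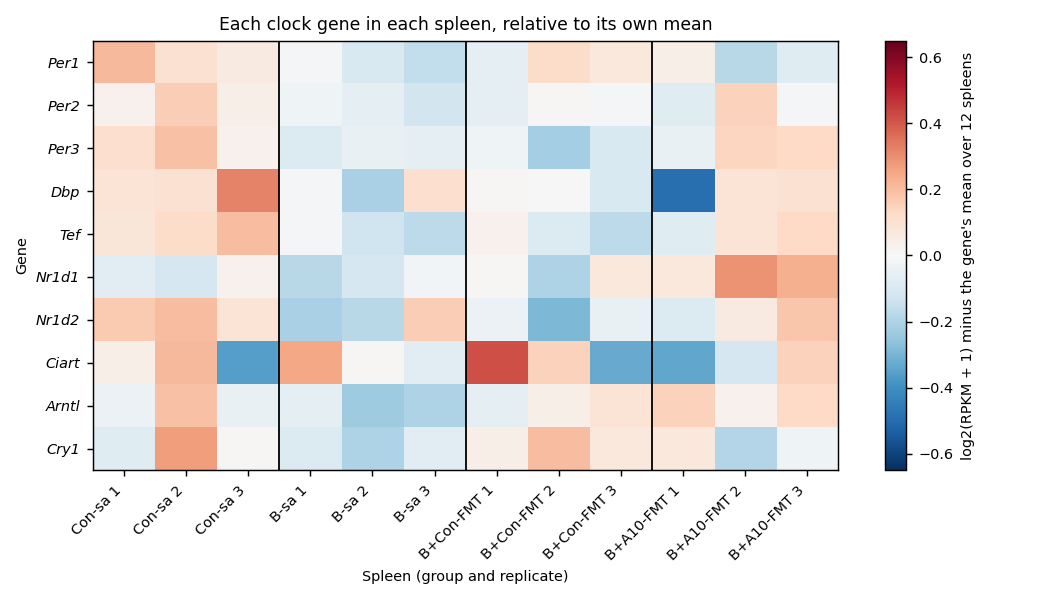
Log2(RPKM + 1) of each clock gene (rows) in each spleen (columns, by group and replicate) minus the mean of that gene over the 12 spleens, from blue (lower) to red (higher). Of 120 values, 100 lay within 0.2 of the mean, and the extremes were Dbp in B+A10-FMT replicate 1 (-0.49) and Ciart in B+Con-FMT replicate 1 (0.42).

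By spleen, 7, 9 and 8 of the 10 genes were above their own mean over the 12 spleens in Con-sa, and 1, 1 and 2 were in B-sa. The counts were 5, 5 and 4 in B+Con-FMT and 4, 7 and 7 in B+A10-FMT. The 10 genes are read from the same spleens, so these counts are not independent. Over all genes tested, 7580 of 12671 also had a negative difference in B-sa against Con-sa. The spleen farthest from the rest in 1 gene was B+A10-FMT replicate 1, where Dbp deviated by -0.49 from its mean on the log2 scale and Arntl by 0.15.

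Arntl and Dbp are known to peak at different times of day, and their ratio is given for each spleen. The ratio of Arntl to Dbp RPKM was 1.72, 2.02 and 1.41 in Con-sa, 1.84, 1.91 and 1.49 in B-sa, 1.81, 1.97 and 2.21 in B+Con-FMT, and 3.26, 1.82 and 1.92 in B+A10-FMT. It stayed between 1.41 and 2.21 in 11 spleens and was higher in B+A10-FMT replicate 1. Across the 12 spleens the log2 values of Arntl and Dbp had a Pearson r of -0.131 (permutation p = 0.712) and a Spearman rho of -0.035 (permutation p = 0.924), the 1 pair tested. Without the 2 spleens farthest from the median of Arntl, B-sa replicates 2 and 3, r was -0.409, and without B+A10-FMT replicate 1 it was 0.238, so even its sign rested on 1 spleen. With group means removed r was -0.274.

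**Figure D4:**
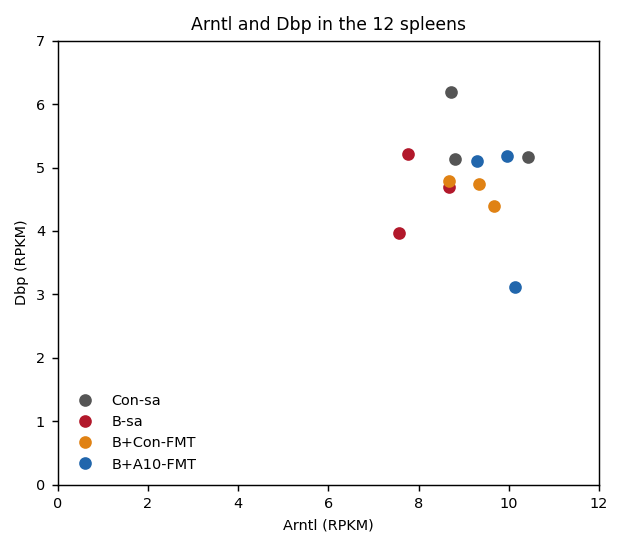
Dbp (vertical axis) against Arntl (horizontal axis), both in RPKM from 0, in the 12 spleens coloured by group. The points form 1 cloud except B+A10-FMT replicate 1, with Dbp at 3.11 RPKM and Arntl at 10.13 RPKM.

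Within the loop, the gene most like Dbp over the 12 spleens was Tef (r = 0.598, rank 419 of 12670 genes), followed by Nr1d2 (r = 0.523, rank 838). The member most like Arntl was Cry1 (r = 0.642, rank 585), which in other tissues also peaks late. These are descriptions over 12 spleens that differ in group, globin sums and cell markers, whose part in the correlations was not tested. Many genes outside the loop were closer. The genes nearest to Dbp were Cep97 (r = 0.899), Tcaim (0.889), 4930503L19Rik (0.872), Fahd2a (0.871) and Stard6 (0.855). All 5, like Dbp, were lowest in B+A10-FMT replicate 1, and without that spleen, left out after its values were seen, their r with Dbp was 0.653 to 0.818 and their ranks 96 to 1254, while Tef had an r of 0.715 (rank 680). Those nearest to Arntl were Mapkap1 (r = 0.907), Irak3 (0.906), Trak1 (0.895), Cyp39a1 (0.892) and Gatd1 (0.892), between 0.842 and 0.951 with any single spleen left out.

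Of 24 further genes of the clock pathway, 19 were tested, and 4 of them (Clock, Noct, Timeless and Gsk3b) were called in at least 1 comparison. In B-sa against Con-sa 2 rose and 1 fell, where 14.5% of all genes were called. By limma 0 were called in B+Con-FMT against B-sa, with 0.844% of all genes called (3 of 19 at an unadjusted p under 0.05, against 18.4%), and 0 in B+A10-FMT against Con-sa, with 0.41% called (2 unadjusted, against 13.5%). In B+A10-FMT against B-sa 1 fell, against 5.27% of all genes called, in B+A10-FMT against B+Con-FMT 1 rose and 1 fell (10.4%), and in B+Con-FMT against Con-sa 1 rose (8.87%). In the test of any difference among the groups, 2 of the 19, Noct (limma adjusted p = 0.0172) and Clock (0.0471), passed, against 17.1% of all genes. The second cryptochrome Cry2, the repressors Bhlhe40, Bhlhe41 and Nfil3, the activator Rora and the casein kinases passed in no comparison.

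Clock, the partner of ARNTL, measured 5.5, 4.97 and 5.42 RPKM in Con-sa spleens, 4.47, 3.89 and 4.30 RPKM in those of B-sa, 4.6, 4.35 and 4.37 RPKM after B+Con-FMT, and 5.34, 4.84 and 4.92 RPKM after B+A10-FMT. The B-sa and B+Con-FMT spleens were below all Con-sa and all B+A10-FMT spleens. Of all genes tested, 22.8% were lower in every B-sa and 23.6% in every B+Con-FMT spleen than in all Con-sa spleens. In 19.7% every B+A10-FMT spleen was above every B-sa spleen. Clock fell in B-sa against Con-sa by 0.27 on the log2 scale (SE 0.07, limma adjusted p = 0.0272). The differences of B+Con-FMT from Con-sa, -0.21 ± 0.07 (limma adjusted p = 0.0823), of B+A10-FMT from B-sa, 0.21 ± 0.07 (0.1), and from B+Con-FMT, 0.15 ± 0.07 (0.189), did not pass. The call in B-sa against Con-sa was lost under 2 of 8 other ways of processing. These were fits of the 6 mice compared (limma adjusted p = 0.0731) and the top transcript (0.457). It was also lost without Con-sa replicate 1, Con-sa replicate 3 or B-sa replicate 2 (limma adjusted p up to 0.107).

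Noct, or nocturnin, is a phosphatase of NADP cofactors whose transcript follows the clock in many tissues. It measured 14.49, 13.26 and 16.42 RPKM in Con-sa spleens, 19.07, 17.73 and 19.14 RPKM in those of B-sa, 19.38, 17.55 and 17.76 RPKM after B+Con-FMT, and 13.04, 14.01 and 15.93 RPKM after B+A10-FMT. The spleens fell into 2 levels that did not overlap, B-sa and B+Con-FMT above and Con-sa and B+A10-FMT below. Of all genes tested, 35.0% had no overlap between B+A10-FMT and B+Con-FMT in either direction. The log2 differences were 0.33 ± 0.08 for B-sa against Con-sa (limma adjusted p = 0.0245), 0.29 ± 0.08 for B+Con-FMT against Con-sa (0.0466), -0.36 ± 0.08 for B+A10-FMT against B-sa (0.0301) and -0.33 ± 0.08 for B+A10-FMT against B+Con-FMT (0.0287). In that order, these calls were lost under 1, 4, 2 and 1 of 8 other ways of processing, each under the top transcript, the second also with no filter, fits of the 6 mice compared and equal totals outside the globin genes, and the third also with fits of the 6 mice compared. Leaving out single mice ended them for 4, 7, 5 and 4 of the 12 mice. For B-sa against Con-sa they were Con-sa replicates 1 and 2 and B-sa replicates 2 and 3, with adjusted p up to 0.0898. For B+Con-FMT against Con-sa they were Con-sa replicates 1 and 2, B-sa replicate 3, the 3 B+Con-FMT mice and B+A10-FMT replicate 2 (up to 0.154). For B+A10-FMT they were the 3 B-sa mice and B+A10-FMT replicates 1 and 2 against B-sa (up to 0.104), and replicates 1 and 2 of both groups against B+Con-FMT (up to 0.109). The direction held in every such fit.

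Timeless, a replication fork protein that also binds clock proteins, measured 11.89, 11.63 and 11.84 RPKM in Con-sa spleens, 14.59, 13.76 and 13.93 RPKM in those of B-sa, 11.22, 11.21 and 13.60 RPKM after B+Con-FMT, and 12.42, 13.20 and 13.68 RPKM after B+A10-FMT. The B-sa spleens were above all others, but the log2 differences from B-sa were -0.22 ± 0.07 after B+Con-FMT (limma adjusted p = 0.139) and -0.10 ± 0.07 after B+A10-FMT (0.417). Neither passed. Timeless rose by 0.24 ± 0.07 (log2) in B-sa against Con-sa (limma adjusted p = 0.042). This call was lost under 3 of 8 other ways of processing (limma adjusted p up to 0.801). Leaving out any of the 6 mice compared or B+A10-FMT replicate 2 also ended it (limma adjusted p up to 0.107). With the top transcript alone the difference of Timeless was -0.06. Exons of Gm26847 on the opposite strand overlap those of Timeless.

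Gsk3b, a kinase that phosphorylates PER2, CRY2 and REV-ERB alpha among many targets, measured 12.65, 13.48 and 12.42 RPKM in Con-sa spleens, 12.67, 12 and 13.50 RPKM in those of B-sa, 12.29, 12.05 and 12.58 RPKM after B+Con-FMT, and 14.45, 15.07 and 14.18 RPKM after B+A10-FMT. The B+A10-FMT spleens were above all others. Of all genes tested, 35.0% had no overlap between B+A10-FMT and B+Con-FMT in either direction, and 19.7% were higher in every B+A10-FMT than every B-sa spleen. The log2 difference of B+A10-FMT from B+Con-FMT was 0.23 ± 0.06 (limma adjusted p = 0.0307), and the call was lost under 3 of 8 other ways of processing and without B+Con-FMT replicate 1 or 2 or any B+A10-FMT mouse (adjusted p up to 0.125). The differences of B+A10-FMT from B-sa, 0.18 ± 0.06 (limma adjusted p = 0.0798), and from Con-sa, 0.17 ± 0.06 (0.254), did not pass.

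**Figure D5:**
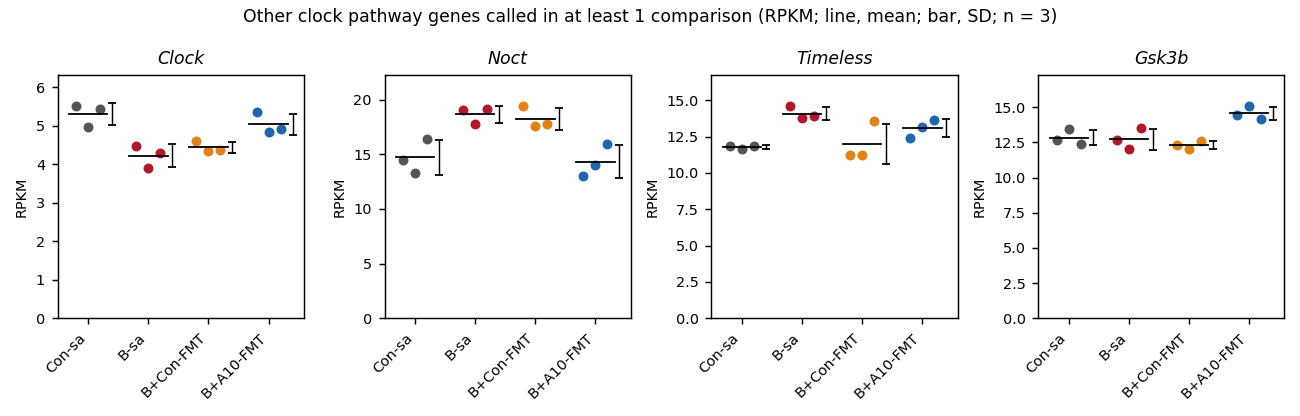
RPKM (vertical axes from 0) of the 4 further clock pathway genes called in at least 1 comparison, by spleen (points) and group, with group means (lines) and SD (bars, n = 3). Noct is high in B-sa and B+Con-FMT (17.55 to 19.38 RPKM) and low in Con-sa and B+A10-FMT (13.04 to 16.42 RPKM).

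Lists of genes that respond to the circumstances of collection were read beside the clock genes. The 8 glucocorticoid response genes, induced by the daily peak of corticosterone and by stress, summed to 233 to 339 RPKM with all groups overlapping, of which the metallothioneins Mt1 and Mt2 averaged 91.2 and 69.4 RPKM in Con-sa. Of 7 tested, 1, Ddit4, was called in 1 of the 6 comparisons, lower in B+Con-FMT against Con-sa, where 8.87% of all genes were called. At an unadjusted p under 0.05 there were 4 of 7 in that comparison (27.4% of all genes), 3 in B-sa against Con-sa (31.3%) and 3 in B+A10-FMT against Con-sa (13.5%). The 12 immediate early genes, induced within minutes of handling, summed to 199 to 225 RPKM, lowest in B+A10-FMT (199 to 205 RPKM). Btg2 alone averaged 97.2 RPKM in Con-sa and 84.5 RPKM in B+A10-FMT. In B+A10-FMT against Con-sa 8 of 11 had a negative difference and 3 a positive one, among them Fos (means of 2.38 and 1.75 RPKM). Of the 11 tested, 1 fell in B+A10-FMT against B+Con-FMT, with 10.4% of all genes called, and 1 rose in B+Con-FMT against Con-sa, with 8.87% called. Their part in the levels of the clock genes was not tested.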

How the data were processed

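RNA from 12 spleens was sequenced by the authors after oligo(dT) selection. The deposited files give RPKM (reads per kilobase of transcript, scaled to library size) per RefSeq transcript, 1 file per mouse. The submitters' processing notes name HISAT, Bowtie2 and the build mm10; the paper's methods name another aligner. Groups were taken from the agent labels.

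RPKM of 60654 transcripts were summed to 18221 genes, of which 18101 matched a symbol in RefSeq (GRCm38.p6). Values were log2-transformed after adding 1. Genes with at least 1 RPKM in at least 3 mice, 12671 in all, were fitted with limma 3.58.1 in R 4.3.3 (group means, all 12 mice, empirical Bayes with trend and robust settings), and calls were made at a Benjamini-Hochberg adjusted p under 0.05. The fit was tested on simulated data. Correlations were tested with 100000 permutations in scipy 1.17.1, two-sided. The authors' own test takes no account of the spread between mice and was not used. The 10 genes and the gene lists were chosen with earlier results of these data known. All 10 genes are named with values, other clock pathway genes where called, and the 5 genes outside both lists most correlated with Dbp and with Arntl. Read numbers were estimated from the steps of low RPKM values with transcript lengths reduced by 160 bases, and cover counting error only. RPKM depend on totals, so by construction more globin or pancreatic reads in a library mean lower values of its other genes. Alternatives were pseudocount, filters, scalings, the top transcript in place of the sum, a replicate block, pairwise fits and each mouse left out.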

Additional observations from a re-analysis of the deposited data

How the results depend on the processing

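The number of clock genes called in B-sa against Con-sa, 1 as reported, became 0 with a pseudocount of 0.1, no filter, a replicate block, fits of the 6 mice compared, median-of-ratios scaling and the top transcript, and ranged from 0 to 1 with single mice left out. With totals made equal outside the globin genes it became 1 in B+Con-FMT against Con-sa (Tef) and 1 in the test among the 4 groups. It ranged from 0 to 1 in B+A10-FMT against B-sa with single mice left out. The counts of other clock pathway genes with single mice left out ranged from 0 to 3 (B-sa against Con-sa), 0 to 1 (B+Con-FMT against B-sa, B+A10-FMT against B-sa and B+Con-FMT against Con-sa) and 0 to 2 (B+A10-FMT against B+Con-FMT). With the top transcript they became 0 in B-sa against Con-sa, B+A10-FMT against B-sa, B+A10-FMT against B+Con-FMT and B+Con-FMT against Con-sa. Pairwise fits gave 0 in B+A10-FMT against B-sa and in B+Con-FMT against Con-sa, no filter 0 in the latter, and equal totals outside the globin genes 2 there, Clock and Csnk1d, with Noct lost. In B+A10-FMT against B+Con-FMT a replicate block and median-of-ratios scaling each gave 1, and equal totals outside the globin genes gave 3 (Noct, Gsk3b and Nampt, the last named after its value was seen). With the top transcript Per1 (0.0363) and Timeless (-0.061) changed sign in B-sa against Con-sa, Ciart there ranged from -0.0591 to 0.226 with single mice left out, negative without Con-sa replicate 3, and the correlation of Arntl with Dbp was 0.359. That correlation ranged from -0.406 to 0.238 with single mice left out. The cause of these shifts was not tested.

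Equal replicate numbers did not pair the mice: residuals of same-numbered mice correlated from -0.373 to 0.303, those of other pairs from -0.432 to 0.512. Under the replicate block Tef in B-sa against Con-sa had a log2 difference of -0.24 with a limma adjusted p of 0.0799. Of the 10 genes, Ciart and Nr1d1 had the largest estimated counting error, 19% and 13%.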
